A study of Mus musculus with 19 samples.

Results

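The proteasome is the barrel-shaped protease that degrades ubiquitin-tagged proteins, and its constitutive subunits were followed here in the mouse aorta 7 days after elastase injury. Members were chosen by gene symbol (Psma, Psmb, Psmc, Psmd, Psme, Psmf and Psmg followed by a number, leaving out the interferon-induced Psmb8, Psmb9 and Psmb10), which gave 44 of the 30142 genes measured. They comprised 15 genes of the core particle (8 alpha and 7 beta), 9 of the base, 8 of the lid, 3 activators, 7 assembly factors (3 for the base, 4 for the core), the inhibitor gene Psmf1 and Psmc3ip. Psmc3ip matches the symbol rule but encodes a recombination protein and is no subunit. Psmb5, the chymotrypsin-like catalytic subunit, and the activator gene Psme2 are not members, because their probe sets carry several gene symbols.

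In the core particle, rings of alpha subunits gate the entry to rings of beta subunits, of which Psmb5, Psmb6 and Psmb7 hold the constitutive proteolytic sites. The regulatory particle binds on top. Its base carries a ring of ATPases (the Psmc genes) that unfold substrates and scaffold subunits that dock ubiquitin, and its lid carries the deubiquitinase encoded by Psmd14. Activators such as the complex of the Psme1 and Psme2 products open the core without ubiquitin, and interferon gamma induces that complex together with Psmb8, Psmb9 and Psmb10, which replace the constitutive proteolytic subunits in leukocytes and inflamed tissue.

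Each array held RNA from the infrarenal aorta of 1 C57BL/6J mouse operated on at 10 weeks of age, and no RNA was pooled. PPE mice had porcine pancreatic elastase at 2.5 U/mL infused into the clamped or ligated segment for 5 min at 120 mmHg, and sham mice had saline infused in the same way, so all groups share the surgery. There were 5 sham and 7 PPE arrays from males and 3 sham and 4 PPE arrays from females, and these numbers limit the precision. Values are log2 intensities, and a gene is called higher or lower where its Benjamini-Hochberg adjusted p in limma, over all 30142 genes, is below 0.05.

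Array medians lay between 5.61 and 5.85 in males and between 6.17 and 6.31 in females, so levels were compared within each sex only. Smooth muscle markers marked the tissue as labelled, with a mean over 10 markers of 12.38 to 13.50 in male sham and 12.86 to 13.26 in female sham arrays. Some arrays stood apart in markers of neighbouring tissue. The mean of 7 adipocyte markers was 12.50 in male sham 4 while the remaining male sham arrays lay between 7.95 and 8.82. The mean of 8 skeletal muscle markers was 11.21 in female sham 1 and 9.71 in female PPE 2 against 5.93 to 6.12 in the other female arrays. It was 7.50 in male PPE 6 against 5.34 to 5.76 in the other male arrays. Female PPE 2 was also highest for 4 nerve markers, at 8.64. Where leaving out one of these arrays changes the call of a member, this is stated, mostly without the value and for some members only as the number of fits that kept the call. Where it moves a class median beyond its spread, the median without the array is given.

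Promoters of the 3 members with the largest rises in males are shown with that of Psmg4, an assembly factor of the core, because Psme1 and Psmg4 hold a core of the interferon-stimulated response element close to the start site. The RefSeq promoters of GRCm38.p6 span 250 bases before to 50 bases after the start. They are written from 5′ to 3′ on the strand of the gene. Capitals mark the letters of that element (GAAA, 2 bases of any kind, GAAA), of the CCAAT box (CCAAT) and of the GC box (GGGCGG) on either strand.
Psme1, chr14:55578244-55578543, plus strand: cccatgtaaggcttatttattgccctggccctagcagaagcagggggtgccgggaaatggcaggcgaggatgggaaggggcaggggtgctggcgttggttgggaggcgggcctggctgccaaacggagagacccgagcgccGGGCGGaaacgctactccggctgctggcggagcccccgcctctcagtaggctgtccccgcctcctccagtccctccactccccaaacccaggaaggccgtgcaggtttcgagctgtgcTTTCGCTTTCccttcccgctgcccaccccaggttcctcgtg
Psmg4, chr13:34162714-34163013, plus strand: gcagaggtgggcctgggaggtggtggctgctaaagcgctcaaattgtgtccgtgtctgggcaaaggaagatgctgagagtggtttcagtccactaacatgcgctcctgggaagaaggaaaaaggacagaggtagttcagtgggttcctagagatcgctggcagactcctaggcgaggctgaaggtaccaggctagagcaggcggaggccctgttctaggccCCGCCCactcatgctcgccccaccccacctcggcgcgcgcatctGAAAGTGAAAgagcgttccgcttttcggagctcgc
Psmd10, chrX:140956662-140956961, minus strand: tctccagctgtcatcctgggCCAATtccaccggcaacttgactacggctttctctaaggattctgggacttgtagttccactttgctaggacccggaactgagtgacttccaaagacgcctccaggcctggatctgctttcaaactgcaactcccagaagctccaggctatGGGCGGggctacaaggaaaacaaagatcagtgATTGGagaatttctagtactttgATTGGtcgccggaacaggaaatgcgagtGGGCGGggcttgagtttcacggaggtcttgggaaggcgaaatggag
Psma2, chr13:14612992-14613291, plus strand: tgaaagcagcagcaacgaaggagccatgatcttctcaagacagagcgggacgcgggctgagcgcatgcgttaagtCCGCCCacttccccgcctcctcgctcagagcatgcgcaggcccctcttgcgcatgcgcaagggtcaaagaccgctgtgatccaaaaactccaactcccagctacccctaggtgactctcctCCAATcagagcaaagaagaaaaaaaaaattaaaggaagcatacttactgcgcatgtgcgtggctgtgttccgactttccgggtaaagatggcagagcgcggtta

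In male aortae the proteasome genes that moved with PPE all rose. Of the 44 members, 18 were called higher, 0 lower and 26 were not called, where 9.67% of all genes were called higher and 9.98% lower. The members' median log2 difference was 0.23, against 0.01 over all genes. Rises were modest, since only 4 of the 18 exceeded 1.5-fold. These were Psme1, Psmd10, Psma2 and Psma5. Members are bright genes, with 40 of 44 above the median gene. Among the 15071 genes brighter than the median gene, tested alone, 18.2% were called higher, and 19 of the 40 members in that range were called higher.

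In female aortae the same comparison called 1 of 44 members higher, Psme1, and 0 lower, beside 2.77% and 1.45% of all genes. At an unadjusted p below 0.05, limma passed 3 members in females and 22 in males. The share of all genes at that threshold was not counted, so these numbers have no background beside them. The median over the members was 0.05, with 27 of 44 positive, against −0.02 over all genes. After quantile normalization it was −0.05, with 14 of 44 positive. With 3 sham and 4 PPE arrays the standard errors were larger than in males, for example 0.13 against 0.10 for Psma5. The log2 difference, taken with its sign, was higher in males than in females for 42 of the 44 members. The same held for 16770 of all 30142 genes, with a median of 0.03 for male minus female. This count includes genes whose change was smaller in males, such as Psmd8 (−0.01 in males and −0.20 in females). In the test of the male minus female response, 0 of 44 members passed at adjusted p below 0.05 in limma, beside 0.541% of all genes. The lowest adjusted p was 0.129, for Psmb6. At an unadjusted p below 0.05, 4 members passed, again without a count over all genes. The members' median for that difference was 0.18 for the deposited values, 0.27 after quantile normalization and 0.23 after median centring, where that of all genes was 0.03, 0.07 and 0.07.

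**Figure D1:**
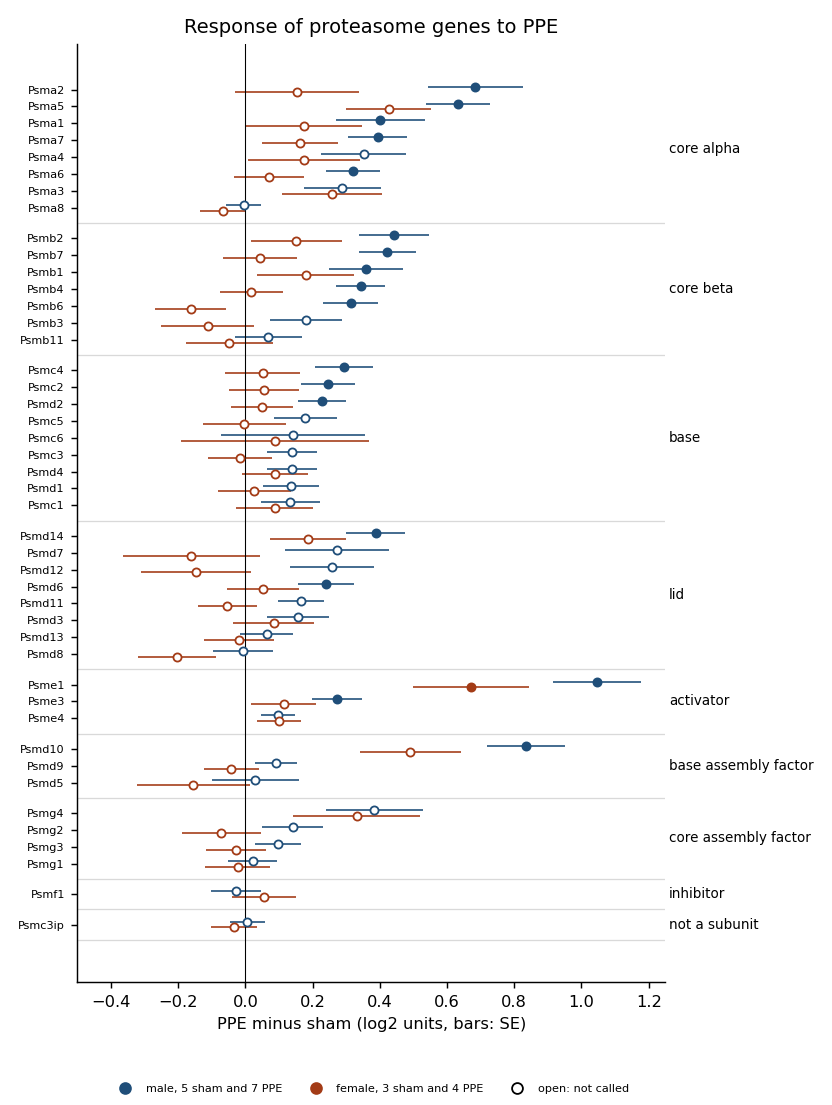
Log2 difference (PPE minus sham) of each of the 44 members in males (blue) and females (red), grouped by class, with bars giving the standard error, filled points called at adjusted p below 0.05 and open points not called. The core members lie mostly right of the base and lid members in males, and Psme1 has the largest difference in both sexes.

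The core particle held most of the male calls, with 5 of 8 alpha and 5 of 7 beta genes called higher. Of all 15 core genes 10 were called higher (median 0.35), against 3 of 9 in the base (median 0.14) and 2 of 8 in the lid (median 0.20). Over all genes 9.67% were called higher, and 18.2% of the genes brighter than the median gene, tested alone. In that fit 11 of 13 core, 3 of 9 base and 2 of 8 lid genes were called higher, so the lid count lay near the share of brighter genes. The 5 core genes without a call included Psma8 and Psmb11, the variants of testis and thymus, which lay at 5.91 to 6.08 and 4.09 to 4.62 in the male arrays and differed by −0.01 and 0.07. The others were Psma3 (0.29, adjusted p = 0.0919), Psma4 (0.35, adjusted p = 0.0604) and Psmb3 (0.18). In females 0 of 15 core, 0 of 9 base and 0 of 8 lid genes were called, with medians of 0.15, 0.05 and −0.04. Over all genes 2.77% were called higher and 1.45% lower in females, so counts of 0 in classes this small lay near those shares. After quantile normalization the female medians were 0.04, −0.07 and −0.14, so the direction for the base depended on the scaling. Without female sham 1, the array with high skeletal muscle markers, they were 0.06, 0.08 and −0.04. Over the fits without 1 array the female lid median ranged from −0.08 to 0.00.

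The mean over the 15 core genes was 9.22, 9.31, 9.40, 9.13 and 9.34 on male sham arrays 1 to 5, and its lowest, median and highest values in male PPE were 9.57, 9.61 and 9.73. Every male PPE array thus lay above every male sham array. In females the core means were 9.81, 9.91 and 9.89 in sham and 10.09, 9.96, 9.88 and 9.93 in PPE, and the groups overlapped. The base means overlapped in males (10.25 to 10.55 in sham and 10.47 to 10.69 in PPE), as did the lid means (9.70 to 10.10 and 10.01 to 10.16). The core mean minus the lid mean of the same array, which no shift of a whole array can move, was −0.71 to −0.55 in male sham and −0.55 to −0.35 in male PPE arrays, so the ranges met at their ends. It was −0.78 to −0.61 in female sham and −0.62 to −0.49 in female PPE arrays. The core mean minus the base mean was −1.18 to −1.08 in male sham and −1.07 to −0.81 in male PPE arrays. In females it overlapped widely, at −1.21 to −1.02 in sham and −1.11 to −1.01 in PPE arrays. These means are descriptions with no test.

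**Figure D2:**
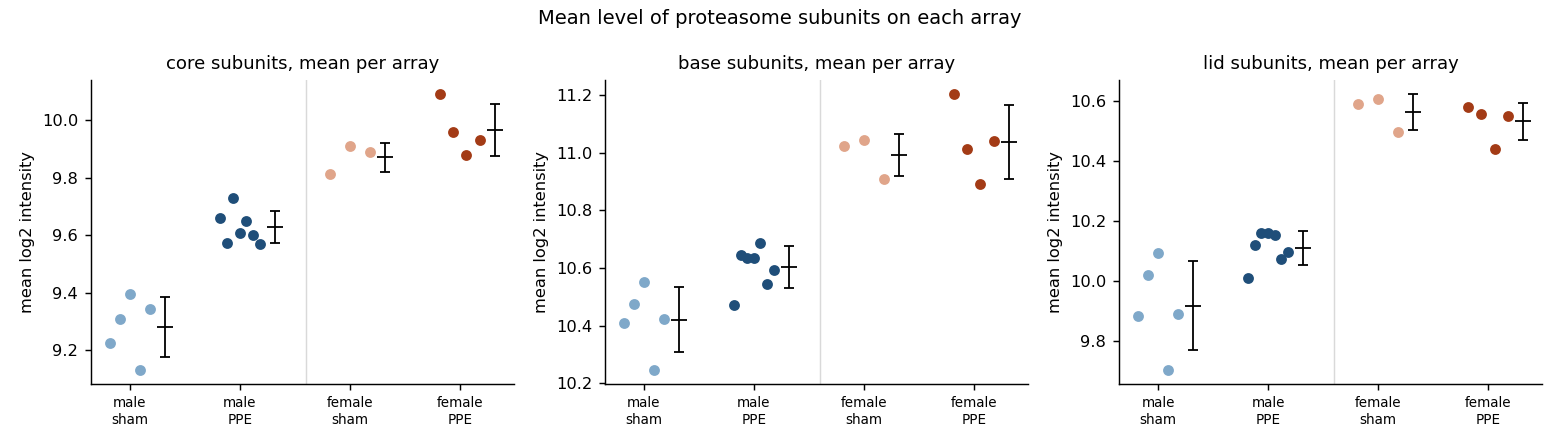
Mean log2 intensity of the core, base and lid genes on each array (1 point per array) in the 4 groups, with the group mean and SD beside the points. For the core, the male PPE arrays (9.57 to 9.73) do not overlap the male sham arrays (9.13 to 9.40), whereas the base and lid groups overlap.

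The base count fell to 0 without male sham 4, the array with high adipocyte markers. Without it the counts in males were 8 of 15 core, 0 of 9 base and 1 of 8 lid genes, and 12 of all 44 members, with medians of 0.34, 0.14 and 0.15 for core, base and lid. Calls over all genes fell as well, to 2544 of 30142 called higher from 2916 with all 19 arrays. Without male sham 1 the counts were 8, 1 and 1, and 13 of all 44 members, beside 2441 of 30142 genes called higher. The base count was also 1 without male PPE 3 and without male PPE 5. Male sham 4, male sham 5 and male PPE 1 were low for some of the same genes, such as Psmc6 (12.10, 11.82 and 11.97, against 12.60 to 13.06 in the other male arrays). Without these 3 arrays together, 9, 2 and 1 genes were called higher in core, base and lid. The medians were 0.325, 0.173 and 0.114, so the lid lay below the base, and 2758 of 30142 genes were called higher. The inhibitor gene Psmf1 was called lower (−0.17, adjusted p = 0.0264, limma). Of the 18 members called in males, 12 were called in each of the 19 fits that left out 1 array. These were Psma2, Psma5, Psma6, Psma7, Psmb2, Psmb4, Psmb6, Psmb7, Psmd10, Psmd14, Psme1 and Psme3. Of these, 8 were also called under every other alternative, while Psma6 and Psmd14 lost the call with the replicate block, Psmb6 without those 3 arrays together, and Psme3 in several settings.

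**Figure D3:**
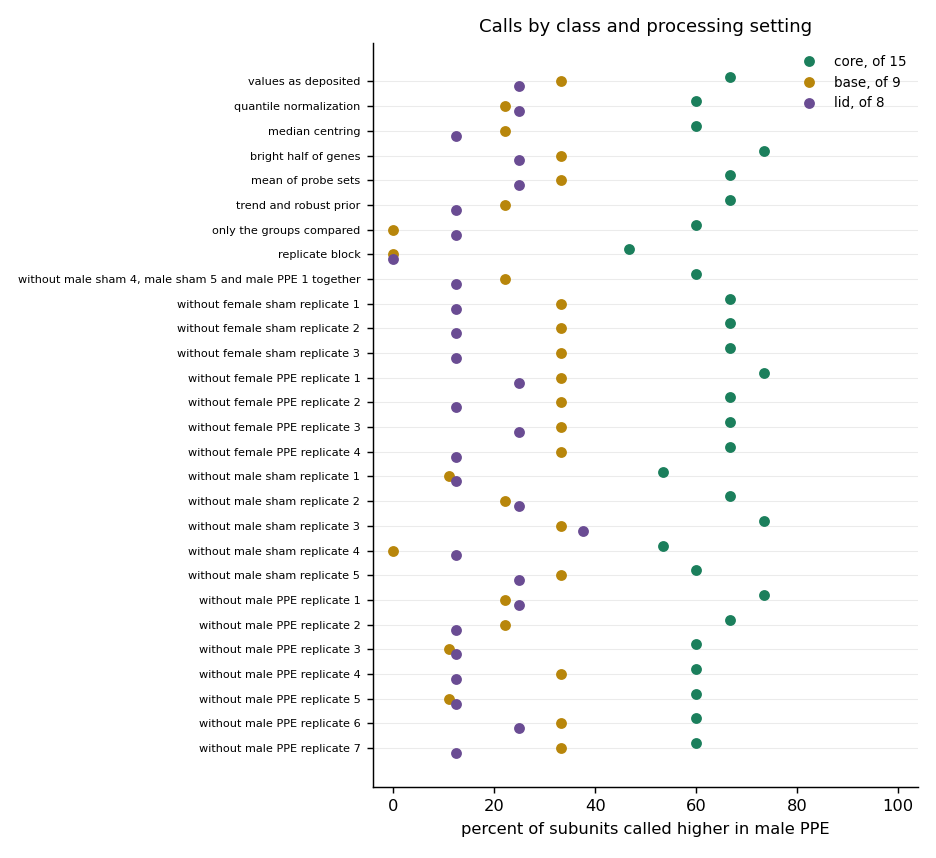
Percent of the core, base and lid genes called higher in male PPE (horizontal axis) under each processing setting (vertical axis). The core share is the highest in every setting, with 10 of 15 for the values as deposited, and the base share falls to 0 without male sham 4, with the male groups fitted alone and with the replicate block.

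Psma5, an alpha ring subunit, showed the clearest rise within the core. It stood at 9.52, 9.79, 9.96, 9.70 and 10.04 in male sham arrays and at 10.20, 10.45 and 10.72 (lowest, median and highest) in male PPE arrays. It rose by 0.63 ± 0.10 (SE, 1.55-fold, adjusted p = 0.000106, limma, n = 5 and 7), with all 7 PPE arrays above all sham arrays. In females Psma5 was 10.74, 10.84 and 10.81 in sham and 11.33, 11.18, 11.25 and 11.13 in PPE. The female groups did not overlap either, and the difference of 0.43 ± 0.13 did not pass (adjusted p = 0.0672, limma). It passed with only the female groups in the fit (adjusted p = 0.0164) and among the brighter genes (adjusted p = 0.0427).

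Psma2, another alpha subunit, rose in males by an amount that varied with the arrays used. Its sham values were 10.55, 10.73, 10.91, 9.96 and 10.05 and its PPE values 10.89, 11.14 and 11.35, a rise of 0.68 ± 0.14 (1.61-fold, adjusted p = 0.00179, limma). The lowest PPE array, male PPE 1, lay below the highest sham array, and male sham 4 and 5 lay lowest. Without male sham 4 the difference was 0.56, below that of Psma5 at 0.61, and without male sham 4, male sham 5 and male PPE 1 it was 0.43 against 0.63. The call held in both fits (adjusted p = 0.00563 and 0.00786, limma). In females Psma2 differed by 0.15 ± 0.19 (adjusted p = 0.819) with overlapping groups. The other alpha genes called in males were Psma1 (0.40), Psma7 (0.39) and Psma6 (0.32). Psma7 and Psma6 had no overlap between the male groups, while the call of Psma1 (adjusted p = 0.0382) held in 11 of the 19 fits without 1 array.

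The beta ring carries the proteolytic sites. Psmb7, the subunit with trypsin-like activity, rose in males by 0.42 ± 0.09 (1.34-fold, adjusted p = 0.00147, limma), from 10.51, 10.59, 10.68, 10.81 and 10.98 in sham to 11.00, 11.10 and 11.39 (lowest, median and highest) in PPE. The groups did not overlap, though the highest sham and the lowest PPE array were close. In females Psmb7 lay at 11.73, 11.85 and 11.78 in sham and 11.97, 11.89, 11.62 and 11.84 in PPE, a difference of 0.04 ± 0.11 with overlapping groups (adjusted p = 0.926).

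Psmb6, the subunit with caspase-like activity, rose in males by 0.31 ± 0.08 (1.24-fold, adjusted p = 0.00969, limma). Its male sham values were 9.20, 9.21, 9.34, 9.02 and 9.28, all below the PPE range of 9.36 to 9.68. In females it stood at 10.02, 9.99 and 9.97 in sham and 9.83, 10.09, 9.61 and 9.79 in PPE, with 3 of 4 PPE arrays below the sham arrays and a difference of −0.16 ± 0.11 (adjusted p = 0.564). The difference between the male and female responses, 0.48 ± 0.13, did not pass (adjusted p = 0.129, limma). Among the structural beta genes Psmb2 (0.44), Psmb1 (0.36) and Psmb4 (0.34, adjusted p = 0.00209) rose in males. For Psmb1 the call was lost without male sham 1, 2 or 4, and male PPE 1 stood at 12.89, above the remaining PPE arrays at 12.32 to 12.52. The probe set that carries the symbols Psmb5 and Mir686 differed by 0.31 ± 0.16 in males and −0.15 ± 0.21 in females and passed in neither (adjusted p = 0.248 and adjusted p = 0.911, limma over all 65956 probe sets).

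**Figure D4:**
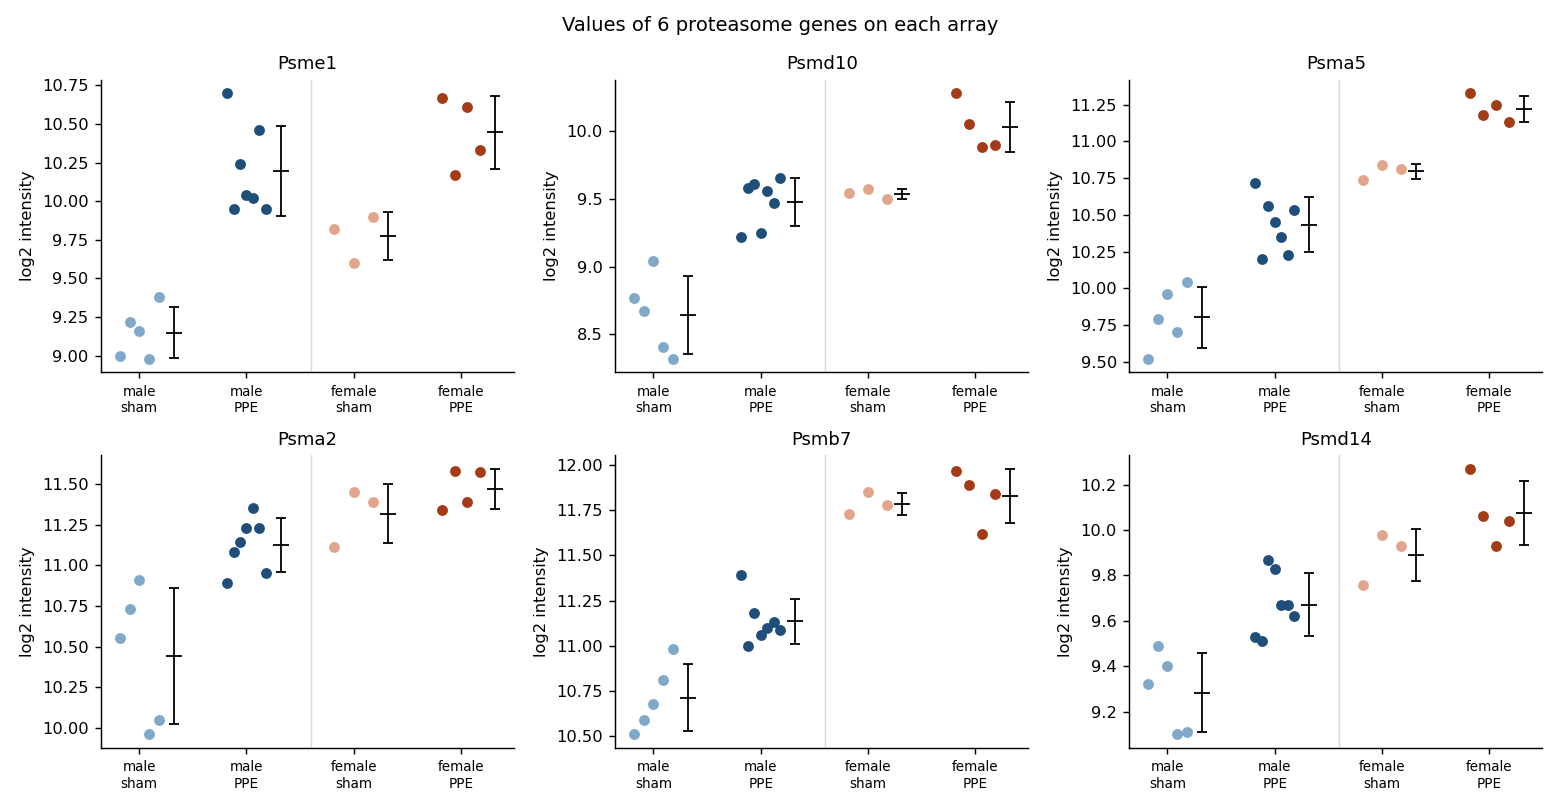
Log2 intensity of Psme1, Psmd10, Psma5, Psma2, Psmb7 and Psmd14 on each array (1 point per array) in the 4 groups, with the group mean and SD beside the points; the vertical axis differs between panels. Psme1, Psmd10 and Psma5 have no overlap between sham and PPE in either sex, while Psmb7 and Psmd14 separate in males and overlap in females.

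In the base, the ATPase genes Psmc4 and Psmc2 and the scaffold gene Psmd2 were called in males. Psmc4 was 9.48, 9.49, 9.57, 9.12 and 9.54 in sham and 9.54, 9.80 and 9.95 in PPE, a rise of 0.29 ± 0.09 (1.23-fold, adjusted p = 0.0211, limma). Male sham 4 was the low value, and without it the call was lost. Psmc2 rose by 0.25 (adjusted p = 0.0366) and Psmd2 by 0.23 (adjusted p = 0.0293), with 6 and 3 of the 7 PPE arrays above all sham arrays, and neither kept its call without male sham 4. The other base genes were Psmc5 (0.18), Psmc6 (0.14), Psmc3 (0.14), Psmd4, a ubiquitin receptor (0.14), the scaffold gene Psmd1 (0.14) and Psmc1 (0.13), none of them called. In females the base genes ranged from −0.02 to 0.09, and none was called.

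In the lid, Psmd14, which removes ubiquitin from bound substrates, rose in males by 0.39 ± 0.09 (1.31-fold, adjusted p = 0.00335, limma). Its sham values were 9.32, 9.49, 9.40, 9.10 and 9.11 and its PPE values 9.51, 9.67 and 9.87, without overlap. Female values were 9.76, 9.98 and 9.93 in sham and 10.27, 10.06, 9.93 and 10.04 in PPE, which overlapped (0.18 ± 0.11, adjusted p = 0.524). The structural lid gene Psmd6 rose by 0.24 in males at adjusted p = 0.0477, and this call held in only 6 of the 19 fits without 1 array. The lid genes Psmd7 (0.27), Psmd12 (0.26), Psmd11 (0.17), Psmd3 (0.16), Psmd13 (0.06) and Psmd8 (−0.01) were not called. Psmd8 was the lowest member in females (−0.20 ± 0.12, adjusted p = 0.474), with sham arrays at 11.53, 11.29 and 11.36 and PPE arrays at 11.04, 11.30, 11.18 and 11.24.

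Among the activators, Psme1 (14: 55578494 to 55581527, GRCm38.p6) had the largest response of all members. In males it stood at 9.00, 9.22, 9.16, 8.98 and 9.38 in sham and 9.95, 10.04 and 10.70 (lowest, median and highest) in PPE. It rose by 1.05 ± 0.13 (SE, 2.07-fold, adjusted p = 1.64e-05, limma, n = 5 and 7). In females it rose from 9.82, 9.60 and 9.90 to 10.67, 10.17, 10.61 and 10.33 (0.67 ± 0.17, 1.59-fold, adjusted p = 0.0327, limma, n = 3 and 4). Sham and PPE did not overlap in either sex. The female call was lost without any 1 of the 3 sham arrays, without female PPE 1 or 3, after quantile normalization (0.55, adjusted p = 0.0768) and with the replicate block (0.71, adjusted p = 0.106). The male and female responses differed by 0.37 ± 0.22 without passing (adjusted p = 0.60).

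The other activators moved less. Psme3, whose product forms a nuclear activator ring, rose in males by 0.27 ± 0.07 (1.21-fold, adjusted p = 0.0125) from 11.34 to 11.74 in sham to 11.59 to 11.89 in PPE, with overlap. The call was lost after quantile normalization (0.19, adjusted p = 0.0738), with only the male groups in the fit (adjusted p = 0.0518), with the replicate block and without the 3 arrays named above. Psme3 was at 0.11 in females. Psme4, which encodes a large activator that caps the core, was at 0.10 in both sexes without a call (adjusted p = 0.214 in males and 0.582 in females). The probe set with the symbols Psme2 and Psme2b, which cannot be assigned to either, rose by 0.97 ± 0.14 in males (adjusted p = 6.04e-05) and 0.86 ± 0.18 in females (adjusted p = 0.0151, limma over all 65956 probe sets). The immunoproteasome genes left out by the symbol rule rose in both sexes, Psmb8 by 1.58 and 1.01, Psmb9 by 1.17 and 1.02 and Psmb10 by 1.16 and 0.97 in males and females.

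Among assembly factors and regulators, Psmd10 (X: 140948425 to 140956711, GRCm38.p6), which encodes gankyrin, a chaperone that helps the ATPase ring to form, had the second largest response. Male sham values were 8.77, 8.67, 9.04, 8.41 and 8.32, and PPE values were 9.22, 9.56 and 9.65 (lowest, median and highest). The rise was 0.84 ± 0.12 (1.78-fold, adjusted p = 4.15e-05, limma), with no overlap. In females Psmd10 stood at 9.54, 9.57 and 9.50 in sham and 10.28, 10.05, 9.88 and 9.90 in PPE. These did not overlap, and the difference of 0.49 ± 0.15 did not pass (adjusted p = 0.081), although it did with only the female groups in the fit (adjusted p = 0.0339) and without male sham 3 (adjusted p = 0.0412). The other base chaperone genes Psmd9 (0.09) and Psmd5 (0.03) were not called in males. Nor were the core chaperone genes Psmg4 (0.38 ± 0.14, adjusted p = 0.0743), Psmg2 (0.14), Psmg3 (0.10) and Psmg1 (0.02). Psmg4 passed in males after quantile normalization (0.44, adjusted p = 0.0314) and without male sham 5 or male PPE 5, and was at 0.33 in females without a call. Psmf1, whose product binds and inhibits the core, was at −0.03 and 0.05 in males and females, and Psmc3ip at 0.01 and −0.03.

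Complete separation of the groups gives another description. In males, every PPE array lay above every sham array for 8 of 44 members, beside 4.69% of all genes. These were Psma5, Psma6, Psma7, Psmb6, Psmb7, Psmd14, Psmd10 and Psme1. In females this held for 4 of 44 members, Psma5, Psmb2, Psmd10 and Psme1, beside 11.0% of all genes. No member had every PPE array below every sham array in either sex.

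Of 30 genes that act with the proteasome, chosen as a list with earlier results of these data known, 21 were measured by probe sets with 1 symbol. In males 4 were called higher, 1 lower and 16 not called (median 0.09), beside 9.67% of all genes called higher and 9.98% lower. All 21 were brighter than the median gene, and in the same fit 2487 of the 15071 such genes were called higher. The count for the list thus lay near that share. Pomp, the chaperone that matures the core and is spent in the process, rose from 10.25 to 10.92 in sham to 11.15 to 11.45 in PPE (0.76 ± 0.09, 1.69-fold, adjusted p = 9.65e-06, limma) without overlap. Nfe2l2, a transcription factor of the oxidant response, rose by 0.67 (adjusted p = 0.00256), while Nfe2l1, the factor that raises proteasome gene transcription when activity is short, fell by 0.33 (adjusted p = 0.00628), with every male PPE array below every sham array. The call of Nfe2l1 was lost after median centring (−0.28, adjusted p = 0.0692) and with the replicate block (−0.32, adjusted p = 0.0734). The deubiquitinase gene Uchl5 (0.44, adjusted p = 0.0447) and the lid gene Sem1 (0.33, adjusted p = 0.0475, limma), named after their values were seen, were also called higher in males. Both overlapped between the groups. Uchl5 was 10.34, 10.36, 10.27, 9.50 and 9.63 in male sham and 9.99 to 10.66 in male PPE, so male sham 4 and 5 were the low values. Sem1 was 9.18 to 9.71 in male sham and 9.56 to 10.14 in male PPE. How these calls fare in the alternatives is not given here. In females 1 of 21 was called higher (median 0.05), where 2.77% of all genes were called higher. The gene called was Fbxo7, an F-box gene (0.39 ± 0.09, adjusted p = 0.0155, limma). Its call was lost after quantile normalization (0.29, adjusted p = 0.0522), median centring (adjusted p = 0.0765), with the replicate block (adjusted p = 0.133) and without female sham 2 or 3 or female PPE 2. In females Pomp was at 0.26, Nfe2l2 at 0.62 and Nfe2l1 at −0.28, none of them called (adjusted p = 0.294, 0.0801 and 0.161).

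Leukocyte markers moved with the same comparison, and in tissue RNA fewer cells of a type and less RNA per cell cannot be told apart. Of 10 macrophage markers 9 were called higher in males, of 8 neutrophil markers 7, of 9 T and NK cell markers 9 and of 12 interferon-stimulated genes 12. Smooth muscle markers were called lower in 10 of 10. Of 7 resident fibroblast markers 5 were lower and 1 higher, and of 8 endothelial markers 4 were lower. The mean over the macrophage markers was 11.39 to 13.20 in male sham and 13.50 to 14.46 in male PPE, and that of the T and NK cell markers 6.44 to 6.57 and 8.02 to 8.91. In females 1 of 10 macrophage, 5 of 8 neutrophil, 8 of 9 T and NK cell and 8 of 12 interferon-stimulated genes were called higher, and 8 of 10 smooth muscle markers lower. Resident fibroblast markers had 2 lower and 1 higher of 7, and 0 of 8 endothelial markers were called. The female macrophage means were 13.10 to 13.39 in sham and 13.71 to 14.38 in PPE. The part of cell composition in the rise of the proteasome genes was not tested.

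RefSeq promoters were found for 36 of the 44 members, and motif searches in them are a description of letters only. The interferon-stimulated response element core (GAAA, 2 bases of any kind, GAAA, either strand) was in 5 of 36 members (13.9%), against 3.85% of 17970 measured genes with a promoter. The 5 were Psme1, Psmg4, Psmb3, Psmd4 and Psmd9. In Psme1 the match begins 10 bases and in Psmg4 16 bases into the transcript, whereas those of Psmb3, Psmd4 and Psmd9 lie upstream, beginning at −163, −80 and −159. Of the 5, only Psme1 was called in either sex. The CCAAT box was in 14 of 36 members (38.9%), against 41.6% of all genes, with 7 of 11 core, 3 of 8 base and 1 of 6 lid promoters. Psma2 has it at −54, and Psmd10 has 3 copies. The antioxidant response element core (TGACNNNGC) was in 5 of 36 members (13.9%), against 15.0% of all genes, and the gamma-activated site core (TTCNNNGAA) in 2 of 36 (5.56%), against 9.16%.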

How the data were processed

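Gene expression in 19 mouse aortae was measured on Affymetrix Clariom D (MTA 1.0) arrays, from 100 ng of RNA per mouse. The deposited values are log2 intensities per probe set. Per the submitters' processing notes, the authors used the Transcriptome Analysis Console and mm10; how probes were summarised and background was corrected, and the software version, is not given in the sources used here. Array medians differ between the sexes, and values were used as deposited.

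Of 65956 probe sets, 30604 had 1 gene symbol (827 updated to RefSeq of GRCm38.p6), and the brightest per gene left 30142 genes. No member had more than 1. Group means over all 19 arrays were fitted with limma 3.58.1 in R 4.3.3 (lmFit, eBayes, two-sided), with Benjamini-Hochberg adjustment, and the script was tested on simulated data. Members, classes and lists were chosen with earlier results of these data known. Genes planned for full description were the activators, the catalytic subunits and, in each class, the 2 with the lowest p in each sex. For several of these, such as Psma3, Psmb4, Psmc1 and Psmd4, not all of the planned values are printed. Psmb5, Psme2 and the pathway gene Adrm1 were planned but lack a probe set of 1 symbol. No array was a copy of another, since no pair shared more than 2.50% of its values. Same-numbered sham and PPE arrays had correlations of deviations between −0.321 and 0.24, so replicate numbers were not taken as pairs. Python 3.11.15 with matplotlib 3.10.9 drew the plots. Probe sets with several symbols were fitted separately over all probe sets, an alternative added after seeing the data. The other alternatives are listed in the closing section.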

Additional observations from a re-analysis of the deposited data

Results flagged for a closer look

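Among 165 sets of values (a gene or class mean in a group of 4 to 7 arrays), 13 had an array far from the others by Dixon's test, where chance gives about 1 in 20. Male PPE 1 was the far array for Psmb1 (12.89 against 12.32 to 12.52 in the other PPE arrays), Psmb4 (8.46 against 8.13 to 8.27), Psmc6 (11.97 against 12.60 to 13.04), Psmd7 (11.75 against 12.23 to 12.52) and Nfe2l1 (10.80 against 11.05 to 11.24). It was thus high for those core genes and low for those base and lid genes, but this did not hold for the classes as a whole. Male PPE 1 was the lowest male PPE array for the core genes Psma1 (9.89), Psma2 (10.89), Psma3 (11.88) and Psma4 (11.01). It was the highest for the base gene Psmc3 (9.66). Without it, 11 core, 2 base and 2 lid genes were called higher in males. The other far male arrays were male PPE 3 for Psma7 (9.70 against 9.24 to 9.41), male sham 5 for Psmb3 (8.0 against 7.59 to 7.70) and male sham 4 for Psmc4 (9.12 against 9.48 to 9.57).

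In females the far arrays were female PPE 3 for Psmd1 (11.40 against 11.55 to 11.57), female PPE 1 for Psmd4 (9.83 against 9.59 to 9.60) and for Nfe2l2 (11.28 against 11.00 to 11.03), and female PPE 4 for Psmd11 (11.13 against 10.98 to 11.00) and for Nfe2l1 (12.04 against 11.69 to 11.74).

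Probe sets with several symbols lie outside the gene-level comparison. The probe set carrying Psme2 and Psme2b was higher after PPE by 0.97 in males (8.37 to 8.60 in sham and 9.16 to 10.00 in PPE) and by 0.86 in females (8.80 to 9.14 and 9.57 to 10.13). A probe set that also carries Psme2b-ps was higher by 1.14 in males (13.02 to 13.46 and 13.77 to 15.38, adjusted p = 0.000523, limma) and by 0.90 in females without a call (adjusted p = 0.0879).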

How the results depend on the processing

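Members called higher in males numbered 12 to 20 without 1 array (core 8 to 11, base 0 to 3, lid 1 to 3, activators 2), 16 after quantile normalization and 15 after median centring, with 0 called lower in these fits. In females they numbered 0 to 2 (core 0 to 1, activators 0 to 1). Over all genes, fits without 1 array called 2441 to 3183 higher and 2517 to 3182 lower in males, 272 to 974 and 96 to 639 in females, and 0 to 58 and 0 to 368 for the difference of the responses. Quantile normalization left 1 activator called in males and 0 members in females, with 852 genes lower in females and 68 higher for the difference. The share of called genes that were higher was 49.2%, 57.5% and 60.3% in males and 65.6%, 44.1% and 69.1% in females as deposited, quantile normalized and centred. For the difference it was 7.4%, 30.5% and 9.1%. Median centring left 1 lid gene in males, 271 genes lower in females, and 25 higher and 249 lower for the difference. The trend and robust prior left 1 lid gene. Among brighter genes 2 members, 1 of them core, were called in females and 25 genes were higher for the difference. With only the groups compared, 12 members (0 base, 1 lid, 1 activator) were called in males and 3 (1 core) in females, with 1334 genes higher in females.

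Replicate numbers are not a stated pairing. With the replicate block, 9 members (0 base, 0 lid, 1 activator), 1801 genes higher and 1734 lower were called in males, 0 members (0 activators), 504 higher and 135 lower in females, and 0 and 0 genes for the difference. Without male sham 4, male sham 5 and male PPE 1 together, 1 member was lower and 1 lid gene and 1 activator were higher in males, and 3 members (1 core), 1467 genes higher and 987 lower were called in females, with 29 and 50 for the difference. The mean of probe sets changed no member's call, but no member had more than 1 probe set, so this setting could not change their values. No named gene that was called reversed its sign in any alternative. The cause of these changes was not tested. Array signal over background is unknown here, so no detection limit can be given for dim members such as Psmb11.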
